A study of Homo sapiens with 2 samples.

Results

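Expression of 10 genes at the centre of the Notch pathway was examined in PC9 cells with and without an active form of the transcriptional co-activator TAZ. The genes encode 3 receptors (NOTCH1, NOTCH2 and NOTCH3), 2 ligands (JAG1 and JAG2), 2 nuclear factors (RBPJ and MAML1) and 3 transcriptional targets (HES1, HEY1 and NRARP). They were chosen by symbol, and all 10 were found among the 16642 genes of the deposited table. PC9 is an established human lung adenocarcinoma line with an activating EGFR deletion. The TAZ4SA library came from PC9-TAZ4SA cells, which express an active TAZ mutant that LATS kinases cannot restrain, from the lentiviral vector pLVX-TP-3F-TAZ4SA, induced with doxycycline at 50 ng/mL for 24 h. The control library came from PC9 cells with the genotype control. The labels name pLVX-Tet-On Advanced as the control vector, but their vector and doxycycline text is common to both samples. Which vectors each line carried, and whether the control received doxycycline, is therefore not told separately. No label says whether either line was a clone or a pool. Each group has a single library and no replicate, so the conditions could not be tested, the spread between cultures is unknown, and every difference below describes these 2 libraries.

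Notch is a receptor system that works between touching cells. A Jagged or Delta ligand on one cell binds a Notch receptor on its neighbour, proteases then release the intracellular domain of the receptor, and this domain joins the DNA-binding protein RBPJ and a Mastermind-like protein such as MAML1 in the nucleus to switch on target genes. In the airway epithelium Notch signalling is known for steering progenitors towards secretory rather than ciliated or neuroendocrine fates. YAP and TAZ have been described as inducers of Notch pathway genes in other tissues, JAG1 and NOTCH2 in liver among them.

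Promoter sequences of the target genes are shown first because the HES and HEY targets covered the widest range of differences among the roles examined. RefSeq windows (GRCh38.p14) running from 250 bases before to 50 bases after a gene's start were matched by symbol for 9 of the 10 genes. The exception was HEY1, which had no matched window, so its promoter was not examined. Windows of 4 genes are printed from 5′ to 3′: HES1 and NRARP, and the further HES genes HES4 and HES7. Capitals mark matches to GTGNGAA, a form of the RBPJ recognition sequence, read on either strand, so that a match on the other strand appears as TTCNCAC.
HES1, chr3:194135898-194136197, plus strand: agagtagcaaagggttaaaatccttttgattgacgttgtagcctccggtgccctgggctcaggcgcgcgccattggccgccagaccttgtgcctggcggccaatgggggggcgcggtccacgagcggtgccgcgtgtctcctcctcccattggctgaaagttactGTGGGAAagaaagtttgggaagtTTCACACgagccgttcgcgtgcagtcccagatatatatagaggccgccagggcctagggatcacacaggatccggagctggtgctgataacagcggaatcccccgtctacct
HES4, chr1:1000048-1000347, minus strand: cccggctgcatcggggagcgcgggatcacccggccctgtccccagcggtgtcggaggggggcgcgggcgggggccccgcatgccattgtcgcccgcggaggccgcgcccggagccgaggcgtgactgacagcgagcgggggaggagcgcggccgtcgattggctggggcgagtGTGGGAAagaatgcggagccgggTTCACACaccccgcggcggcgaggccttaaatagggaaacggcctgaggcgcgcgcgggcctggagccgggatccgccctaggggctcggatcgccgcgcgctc
NRARP, chr9:137302222-137302521, minus strand: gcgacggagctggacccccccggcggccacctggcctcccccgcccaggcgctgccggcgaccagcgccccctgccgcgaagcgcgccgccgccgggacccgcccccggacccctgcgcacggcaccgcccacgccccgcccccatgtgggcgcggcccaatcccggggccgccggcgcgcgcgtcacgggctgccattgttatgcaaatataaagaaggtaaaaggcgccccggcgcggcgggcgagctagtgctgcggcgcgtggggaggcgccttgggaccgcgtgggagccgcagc
HES7, chr17:8124057-8124356, minus strand: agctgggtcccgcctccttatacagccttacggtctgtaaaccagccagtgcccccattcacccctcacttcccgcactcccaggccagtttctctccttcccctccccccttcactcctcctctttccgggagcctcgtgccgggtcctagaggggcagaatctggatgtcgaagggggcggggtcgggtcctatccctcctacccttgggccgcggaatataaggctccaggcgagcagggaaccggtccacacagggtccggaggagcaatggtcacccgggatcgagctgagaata
The windows of HES1 and HES4 each held a pair of GTGNGAA matches that face each other, spanning 30 bases from first to last. The pair began 85 bases before the start in HES1 and 77 bases before it in HES4. Such a facing pair within 40 bases was found in 33 of 35116 promoter windows (0.094%), whereas at least 1 GTGNGAA match was found in 13.8% of them. Paired RBPJ sites are a known feature of the HES1 promoter. GTGNGAA was not found in the windows of NRARP and HES7. Among the further measured HES and HEY genes it was found in HES4 and HEY2, in HEY2 without a facing pair. Among the 13 windows of the 9 matched genes, 5 of which belong to alternative starts of RBPJ, GTGNGAA was found in those of HES1 and RBPJ. The narrower GTGGGAA, which lies within GTGNGAA, was found in the same genes and in 6.25% of all windows. GGAATG, the core sequence bound by the TEAD factors through which TAZ acts, was in none of the 13 windows and in 14.03% of all windows, both strands counted. CACNAG, an N-box bound by HES proteins, was in at least 1 window of 7 of the 9 genes, for RBPJ in 1 of its 5. It was in 38.03% of all windows, which is a share of windows and not of genes. These are matches of letters, not measured sites. Sequence outside the windows of 300 bases was not read, so a motif absent from a window may lie elsewhere near the gene or far from it.

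The induced gene was read before the Notch genes. TAZ is the product of WWTR1 (ENSG00000018408), whose normalized count was 15628 in TAZ4SA cells and 4933 in control cells, 3.17-fold higher. Reads of the transgene and of the cell's own gene were not told apart. Normalized counts are reads divided by 1 factor per library. The libraries held 29668388 reads for TAZ4SA and 47684754 for the control. Fold differences are ratios of normalized counts, and the range after each is a 95% interval that covers counting error only. Log2 ratios are of normalized count + 1, TAZ4SA over control, on which low genes are understated. A gene was called measured when the mean of its normalized counts reached 20, and 14074 were. It was counted as higher or lower if it also differed at least 1.5-fold and its interval excluded a ratio of 1. Of 10 epithelial and lung line markers 9 were in the table, all but NKX2-1. Of the 8 measured, 6 had a log2 ratio above 0 and 2 below. By the rule 0 were higher and 1 (SFTPB) lower, against 4.19% and 4.47% of all measured genes. CDH1 was 1.21-fold higher, KRT7 1.07-fold, KRT8 1.30-fold and KRT18 1.38-fold, whereas KRT19 was 1.12-fold lower. EPCAM stood at 28366 in TAZ4SA cells and 27175 in control cells, and EGFR at 96583 in TAZ4SA cells and 76843 in control cells. The surfactant gene SFTPB, an alveolar marker, had 21.8 in TAZ4SA cells and 81.0 in control cells, 3.72-fold lower (2.14 to 6.92). It rested on 15 reads in TAZ4SA cells and 90 in control cells. NAPSA, another alveolar marker, was below the minimum at 8.70 in TAZ4SA cells and 5.40 in control cells. In such bulk RNA, fewer cells expressing a gene and less RNA per cell cannot be told apart.

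Among the 10 Notch genes, the receptor NOTCH3 and the targets HEY1 and HES1 were lower in the TAZ4SA library, as was the ligand JAG1, while NOTCH2, JAG2, RBPJ and NOTCH1 were slightly higher. By the 1.5-fold rule 2 of the 10 were lower (NOTCH3 and HEY1), against 4.47% of all measured genes, and 0 were higher, against 4.19%. The 10 genes and the rule were chosen with earlier results of these data known, so these shares are not a test of the list. At 2-fold, 0 of the 10 were lower and 0 higher, against 1.61% and 1.93% of measured genes. Short of the 1.5-fold limit, and so not counted, lay HES1, 1.497-fold lower, and then JAG1, 1.40-fold lower. Just past the limit lay NOTCH3, 1.59-fold lower. The median log2 ratio of the 10 was 0.04, beside 0.00019 for all measured genes, with 5 above and 5 below 0. The median was 0.16 for the receptors, -0.14 for the ligands, 0.08 for the nuclear factors and -0.58 for the targets. With so few genes per role, the target median is the HES1 value, and the ligand median lies between genes on opposite sides of 0. For the 7 measured HES and HEY genes the median was -0.14.

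**Figure D1:**
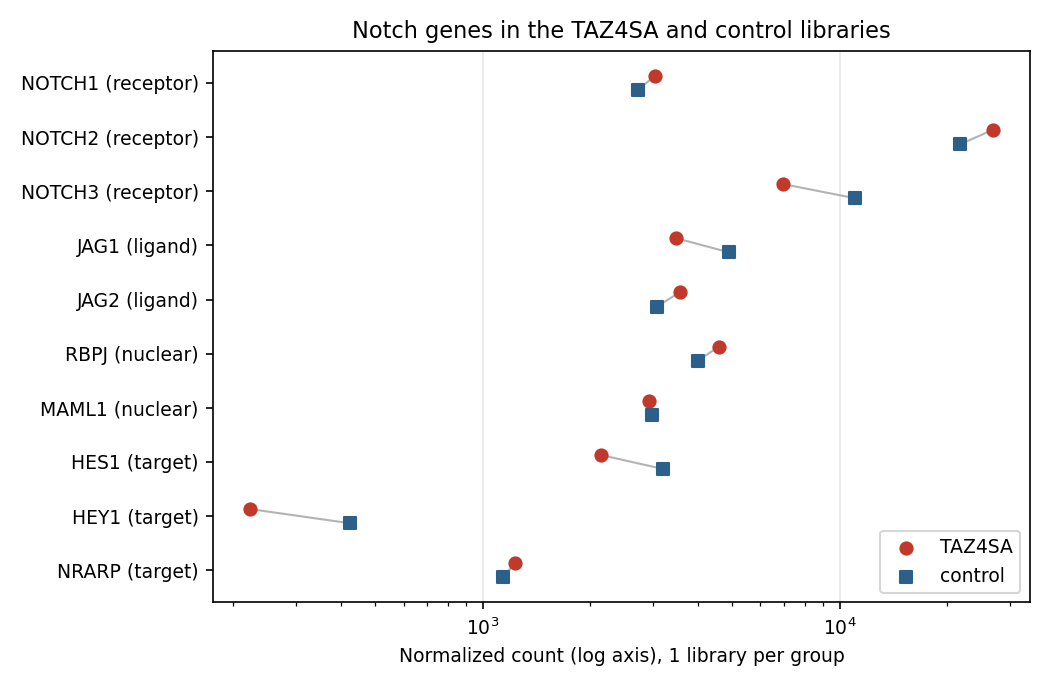
Normalized count of the 10 Notch genes (horizontal log axis) in the TAZ4SA library (circles) and the control library (squares), 1 library each, with a grey line joining the 2 values of a gene. NOTCH2 is the gene with the most counts in both libraries and HEY1 the one with the fewest; NOTCH3, JAG1, HES1 and HEY1 lie further left in the TAZ4SA library.

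The receptors did not move together. NOTCH2 (ENSG00000134250), a broadly expressed receptor, had a normalized count of 26851 in TAZ4SA cells and 21820 in control cells. It was 1.23-fold higher, a log2 ratio of 0.30 (0.27 to 0.33), and 87.7% of measured genes had a smaller ratio. NOTCH1 (ENSG00000148400), the receptor best known from T-cell leukaemia, where it is activated by mutation, had 3040 in TAZ4SA cells and 2719 in control cells, 1.12-fold higher (1.06 to 1.18). NOTCH3 (ENSG00000074181), a receptor that Notch signalling itself can induce, had 6957 in TAZ4SA cells and 11055 in control cells, on 4796 reads in TAZ4SA cells and 12287 in control cells. It was 1.59-fold lower (1.54 to 1.64), and 3.92% of measured genes had a lower log2 ratio than its -0.67. Relative to NOTCH2, a comparison that does not depend on how the libraries are scaled, NOTCH3 reads were 1.96-fold lower in the TAZ4SA library than in the control (1.88 to 2.03); relative to NOTCH1 they were 1.78-fold lower (1.67 to 1.90). NOTCH1 and NOTCH2 stayed closer to each other, with a ratio 1.10-fold lower (1.04 to 1.17).

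The make-up of the receptor pool therefore differed between the libraries. NOTCH3 supplied 18.9% of the reads of NOTCH1 to NOTCH4 in TAZ4SA cells (Clopper-Pearson interval 18.4% to 19.4%) and 31.0% in control cells (30.6% to 31.5%). NOTCH2 supplied 72.8% in TAZ4SA cells (72.3% to 73.4%) and 61.3% in control cells (60.8% to 61.8%). NOTCH1 supplied 8.25% in TAZ4SA cells and 7.64% in control cells. NOTCH4, a receptor known mainly from endothelium, had 14 reads in TAZ4SA cells and 12 in control cells, 0.0551% of receptor reads in TAZ4SA cells and 0.0303% in control cells. A longer transcript gives more reads, so levels were compared between genes per kilobase of annotated exon. On that scale of normalized counts per kilobase NOTCH2 stood 2.16 times above NOTCH3 in the TAZ4SA library and 1.10 times above it in the control. Per kilobase of the longest coding transcript the value was 2.94 in TAZ4SA cells and 1.502 in control cells, so NOTCH2 led under both lengths. It exceeded NOTCH1 per kilobase of exon by 5.45 times in the TAZ4SA library and 4.95 times in the control. NOTCH2NL, a partial copy of NOTCH2 whose reads cannot be cleanly told from it, was 1.28-fold higher (1.07 to 1.52) at 337 in TAZ4SA cells and 264 in control cells. Relative to NOTCH2 reads its ratio between the libraries was 1.04 (0.872 to 1.23).

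**Figure D2:**
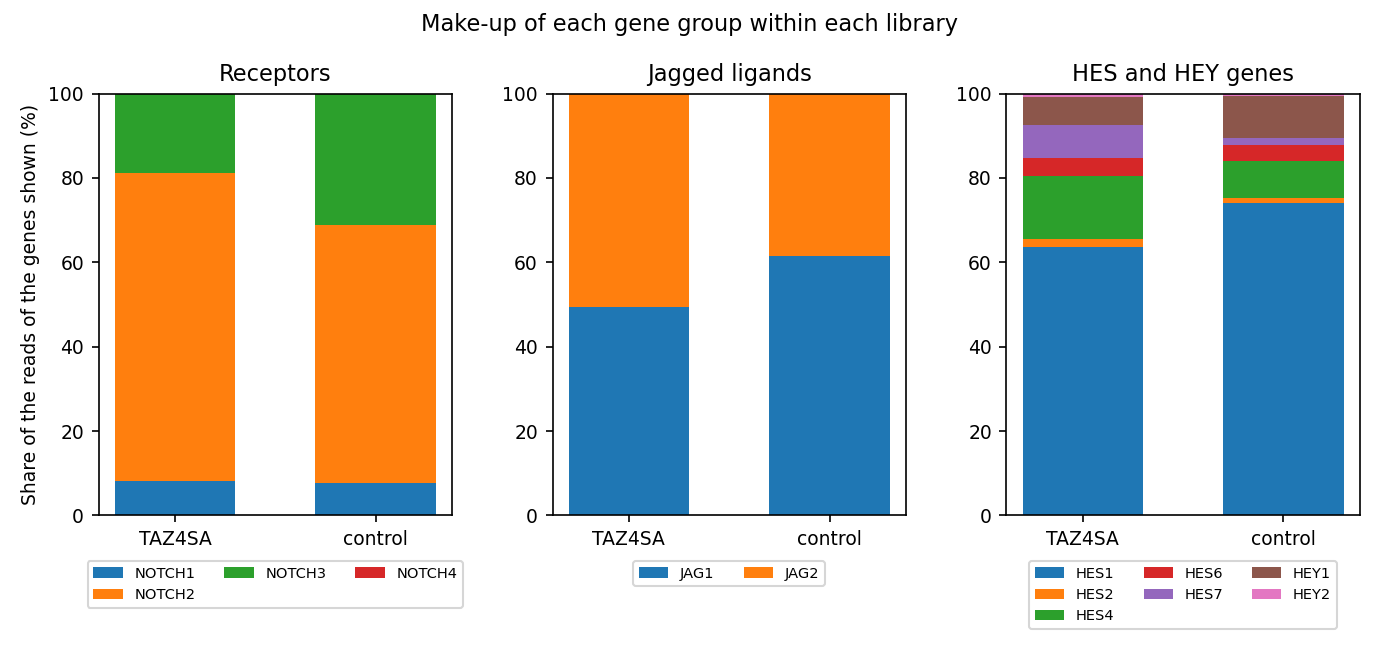
Share of reads (vertical axis, %) taken by each gene within the receptors NOTCH1 to NOTCH4, the ligands JAG1 and JAG2, and the 7 measured HES and HEY genes, in the TAZ4SA library (left bar) and the control library (right bar). In the TAZ4SA library the NOTCH3 share is 18.9% against 31.0% in the control, the JAG1 share 49.5% against 61.4%, and the HES1 share 63.6% against 74.1%.

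The ligands also went opposite ways. JAG1 (ENSG00000101384), a ligand that activates Notch on neighbouring cells, had 3491 normalized counts in TAZ4SA cells and 4905 in control cells, on 2407 reads in TAZ4SA cells and 5451 in control cells. It was 1.40-fold lower (1.34 to 1.47), below the 1.5-fold limit, and 7.03% of measured genes had a lower log2 ratio than its -0.49. JAG2 (ENSG00000184916), the other Jagged ligand, had 3561 in TAZ4SA cells and 3078 in control cells, 1.16-fold higher (1.10 to 1.22). JAG1 made up 49.5% of Jagged reads in TAZ4SA cells (48.1% to 50.9%) and 61.4% in control cells (60.4% to 62.5%). The ratio of JAG1 to JAG2 reads was 1.63-fold lower in the TAZ4SA library (1.51 to 1.74). Per kilobase of exon JAG1 stood at 0.675 times JAG2 in the TAZ4SA library and 1.10 times JAG2 in the control. Per kilobase of the longest coding transcript the value was 0.963 in TAZ4SA cells and 1.57 in control cells. With either length JAG1 lay above JAG2 in control cells. In TAZ4SA cells JAG1 lay below JAG2 per kilobase of exon. By the longest transcript the ligands were near level there, and no interval was computed for that ratio.

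Delta-type and atypical ligands were scarce. DLL3, a Delta-like protein that does not activate Notch in trans, had 74.0 normalized counts in TAZ4SA cells and 53.1 in control cells, and its interval of 0.939 to 2.06 included a ratio of 1. DLK2, a Delta-like protein without the usual receptor-binding domain, had 129 in TAZ4SA cells and 87.3 in control cells, 1.48-fold higher (1.10 to 1.99). DLL1, DLL4 and DLK1 were not in the table analysed here. DLL3 amounted to 1.04% of the reads of JAG1, JAG2 and DLL3 in TAZ4SA cells and 0.661% in control cells, so nearly all ligand reads measured were from the Jagged genes.

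The nuclear factors differed little. RBPJ (ENSG00000168214), the DNA-binding protein of the pathway, had 4588 normalized counts in TAZ4SA cells and 4007 in control cells, 1.15-fold higher (1.09 to 1.20). MAML1 (ENSG00000161021), the co-activator that bridges the complex to histone acetyltransferases, had 2920 in TAZ4SA cells and 2985 in control cells, and its interval of 0.925 to 1.03 included a ratio of 1. Its relatives lay lower. MAML3 had 1017 in TAZ4SA cells and 1537 in control cells, 1.51-fold lower (1.38 to 1.65), and MAML2 had 3082 in TAZ4SA cells and 4319 in control cells, 1.40-fold lower (1.33 to 1.48). Relative to MAML1 reads, those of MAML3 were 1.48-fold lower (1.33 to 1.64) and those of MAML2 1.37-fold lower (1.27 to 1.48). In GENCODE 29 the gene MGST2 overlaps MAML3 on the opposite strand, with 348 reads in TAZ4SA cells and 710 in control cells, and no source used here gives whether counting used strand.

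Of the 3 targets, HEY1 and HES1 lay lower, HES1 just short of the limit, and NRARP was near level. HES1 (ENSG00000114315), a basic helix-loop-helix repressor that mediates much of the Notch response and that represses its own gene, had 2141 normalized counts in TAZ4SA cells and 3206 in control cells, on 1476 reads in TAZ4SA cells and 3563 in control cells. Its log2 ratio was -0.58 (-0.67 to -0.49), and 5.24% of measured genes had a lower one. HEY1 (ENSG00000164683), a related repressor, had 223 normalized counts in TAZ4SA cells and 424 in control cells, on 154 reads in TAZ4SA cells and 471 in control cells. It was 1.90-fold lower (1.58 to 2.29), with a log2 ratio of -0.92 and 1.94% of measured genes below it. NRARP (ENSG00000198435), an ankyrin-repeat protein that binds the Notch intracellular domain and restrains it, had 1229 in TAZ4SA cells and 1141 in control cells, and its interval of 0.986 to 1.18 included a ratio of 1. Relative to NRARP, reads were 1.61-fold lower for HES1 (1.45 to 1.79) and 2.04-fold lower for HEY1 (1.67 to 2.50). HEY1 was the scarcer repressor in both libraries: in normalized counts per kilobase of exon, HES1 stood 15.0 times above it in the TAZ4SA library and 11.9 times above it in the control.

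**Figure D3:**
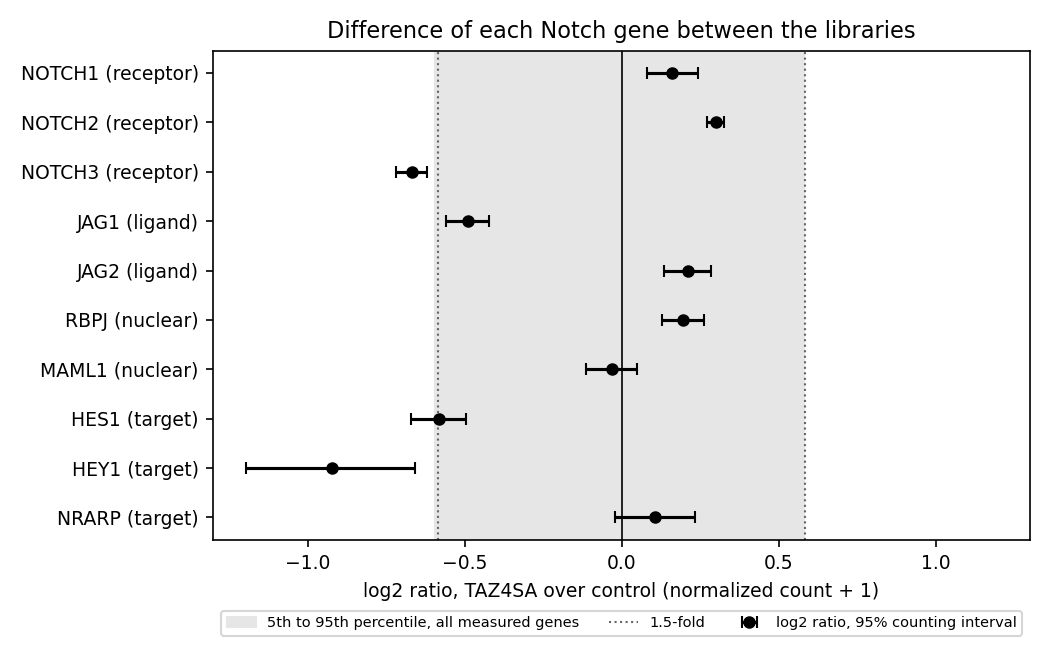
Log2 ratio of each of the 10 Notch genes, TAZ4SA over control, with its 95% counting interval (points and bars, horizontal axis); the grey band spans the 5th to 95th percentile of all measured genes and dotted lines mark 1.5-fold. NOTCH3 (-0.67) and HEY1 (-0.92) lie left of the band and of the 1.5-fold line, HES1 (-0.58) sits just inside both, and the intervals of MAML1 and NRARP include 0.

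Further HES and HEY genes widened this spread. HES7, a repressor known from the segmentation clock of mouse embryos, had 267 normalized counts in TAZ4SA cells and 78.3 in control cells, on 184 reads in TAZ4SA cells and 87 in control cells. It was 3.41-fold higher (2.63 to 4.45), and 99.4% of measured genes had a smaller log2 ratio than its 1.76. HES4, the gene that shares a facing pair of GTGNGAA matches with HES1, had 500.4 in TAZ4SA cells and 381 in control cells, 1.31-fold higher (1.13 to 1.52). Thus the genes with the paired matches printed above lay on opposite sides of 0, HES1 at -0.58 and HES4 at 0.39, and the reads of HES1 relative to HES4 were 1.96-fold lower in the TAZ4SA library (1.68 to 2.29). HES2 (65.3 in TAZ4SA cells, 45.9 in control cells), HES6 (142 in TAZ4SA cells, 162 in control cells) and HEY2 (26.1 in TAZ4SA cells, 28.8 in control cells) each had an interval spanning a ratio of 1. The HES6 protein opposes HES1 in mouse cells. Over the 7 measured HES and HEY genes together, 1 was higher and 1 lower by the 1.5-fold rule, against 4.19% and 4.47% of all measured genes. The 2 were HES7, with a mean normalized count of 173, and HEY1, with 324. No share was computed for genes of so low a level, where ratios spread more widely. HES1 supplied 63.6% of their reads in TAZ4SA cells (61.6% to 65.6%) and 74.1% in control cells (72.8% to 75.3%), HES7 7.93% in TAZ4SA cells and 1.81% in control cells, and HES4 14.9% in TAZ4SA cells and 8.82% in control cells. HES3, HES5, HEYL, HELT and DTX1 were not in the table analysed here.

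The rest of the pathway was read from lists of 68 symbols by textbook role, of which 56 were in the table and 55 measured. Of these 55, 2 were higher (HES7 and KAT2B) and 2 lower (LFNG and MAML3) by the 1.5-fold rule, shares close to those of all genes. Their median log2 ratio was -0.02. Besides HES7 and MAML3, the genes past the limit encode a sugar transferase and an acetyltransferase. LFNG, Lunatic fringe, which adds sugars to Notch receptors and so changes their response to Jagged and Delta ligands, had 366 normalized counts in TAZ4SA cells and 608 in control cells, 1.66-fold lower (1.44 to 1.93). Its relative MFNG, Manic fringe, had 495 in TAZ4SA cells and 410 in control cells, 1.21-fold higher (1.04 to 1.39), and RFNG, Radical fringe, had 351 in TAZ4SA cells and 446 in control cells, 1.27-fold lower (1.09 to 1.49). Relative to MFNG, reads of LFNG were 2.01-fold lower (1.64 to 2.45). KAT2B, a histone acetyltransferase that serves the Notch complex, had 170 in TAZ4SA cells and 103 in control cells, 1.65-fold higher (1.27 to 2.16).

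**Figure D4:**
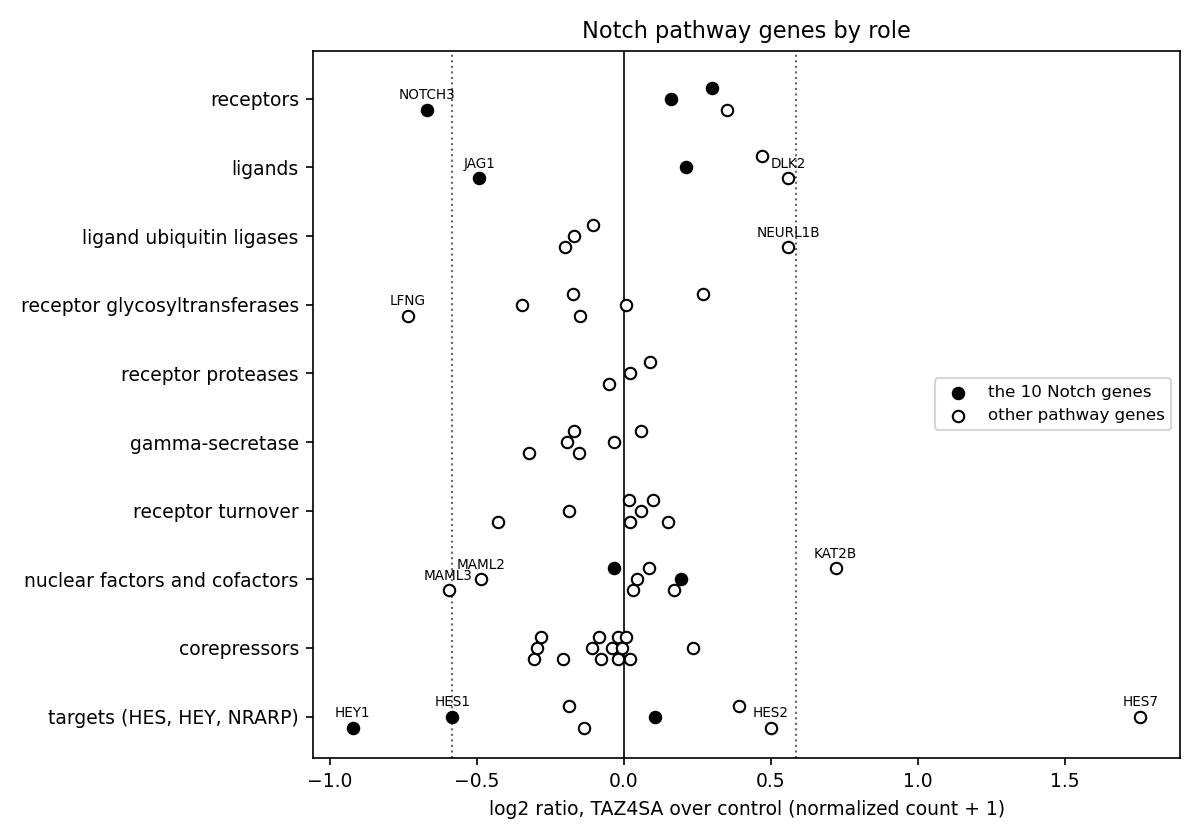
Log2 ratio, TAZ4SA over control (horizontal axis), of the 10 Notch genes (filled) and 55 other measured pathway genes (open), 1 row per role; vertical offsets only separate points, dotted lines mark 1.5-fold, and genes at least 1.4-fold apart are named. Ligands, ligand ubiquitin ligases, proteases, gamma-secretase subunits, turnover genes and corepressors lie between the dotted lines, and every role has genes on both sides of 0.

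By the 1.5-fold rule 91.3% of all measured genes were neither higher nor lower, and the counts for the remaining roles are to be read against that share. All 3 receptor proteases were within 1.5-fold, with ratios from 0.966 to 1.06: FURIN, which cuts the receptor on its way to the surface, was highest, and ADAM17 lowest. ADAM10, the sheddase of ligand-bound Notch, had 14624 in TAZ4SA cells and 14419 in control cells. The 6 gamma-secretase genes, whose complex frees the intracellular domain, were all within 1.5-fold. Their median log2 ratio was -0.16, beside 0.00019 for all measured genes, and 5 of 6 lay below 0. Among those 5, APH1B had an interval of 0.703 to 1.35, which included a ratio of 1. PSENEN was lowest at 644 in TAZ4SA cells and 804 in control cells, a log2 ratio of -0.32 (-0.49 to -0.15). Of the 4 measured ubiquitin ligases that act on ligands, all were within 1.5-fold, and NEURL1B was 1.47-fold higher (1.30 to 1.67) at 682 in TAZ4SA cells and 462 in control cells, whereas MIB1 was 1.15-fold lower (1.10 to 1.20) at 4463 in TAZ4SA cells and 5126 in control cells. The 7 measured genes of receptor endocytosis and turnover were within 1.5-fold; DTX4, a Deltex ubiquitin ligase, was 1.34-fold lower (1.29 to 1.41), and the ligase gene ITCH 1.14-fold lower (1.11 to 1.17). The Notch inhibitor NUMB, at 2907 in TAZ4SA cells and 2793 in control cells, had an interval of 0.983 to 1.10. All 14 measured corepressor genes, which hold target genes silent with RBPJ, were within 1.5-fold with a median log2 ratio of -0.06. Of these, 11 lay below 0 and 3 above.

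**Figure D5:**
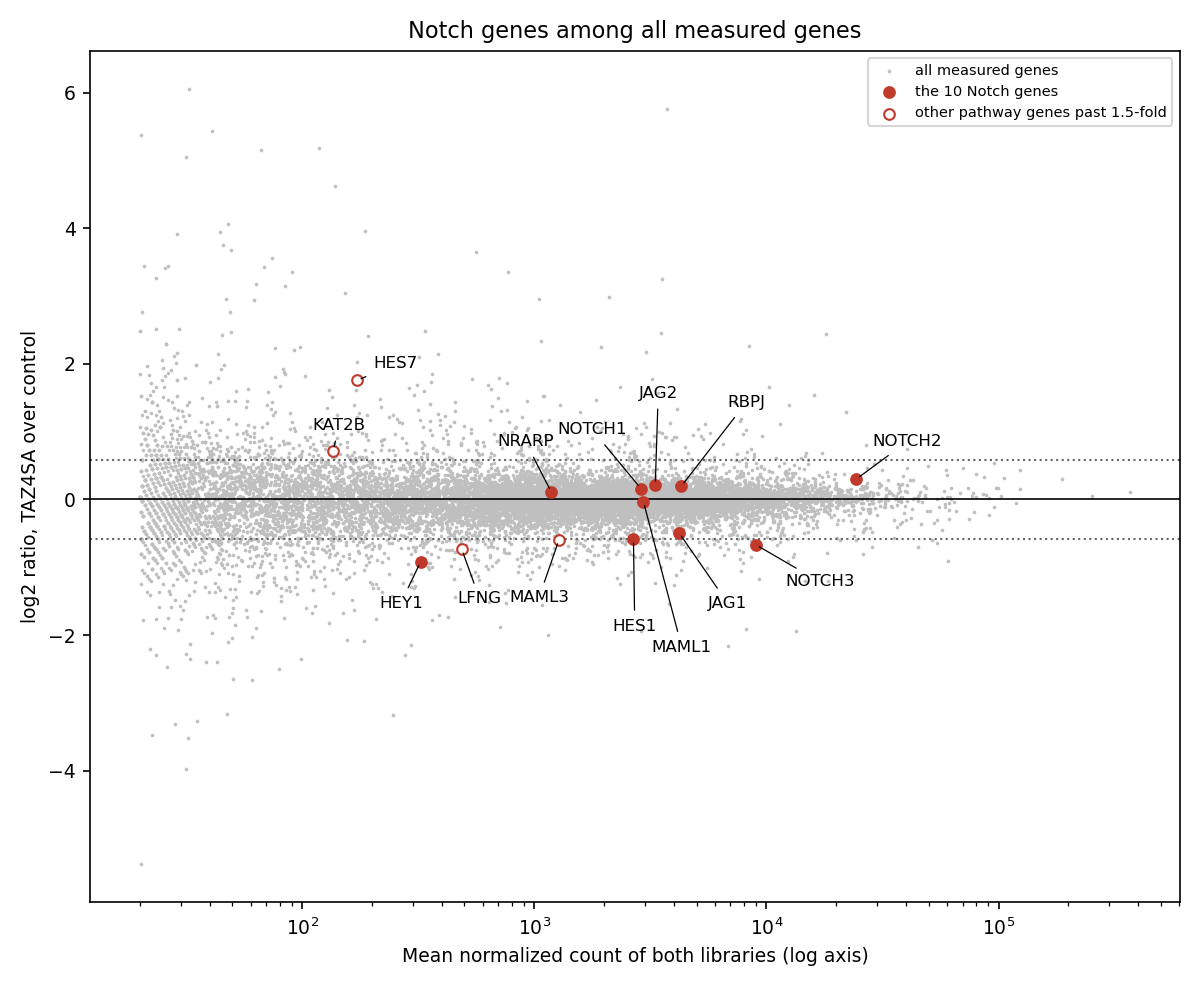
Log2 ratio, TAZ4SA over control (vertical axis), against the mean normalized count of both libraries (horizontal log axis) for the 14074 measured genes (grey), the 10 Notch genes (filled) and the 4 other pathway genes past 1.5-fold (open); dotted lines mark 1.5-fold. The spread of all genes narrows as counts increase, and NOTCH3, at a mean of 9006, lies below the dotted line in a range where few genes do.

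The background depended on the level of expression. Where the mean of both normalized counts reached 1000, which 7423 genes did at a limit chosen after the values were seen, 2.12% of genes were at least 1.5-fold lower and 1.75% higher. Of the Notch genes 9 met that limit, of which 1 (NOTCH3) was lower and 0 were higher. HEY1, with a mean of 324, was not among them.

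Because NOTCH4 and HEY1 are also known from vessels, markers of other cell types were read beside these results. Of 10 endothelial markers 4 were in the table, with a summed normalized count of 2963 in TAZ4SA cells and 3338 in control cells. These were CDH5 (1362 in TAZ4SA cells, 1589 in control cells), ESAM (869 in TAZ4SA cells, 1069 in control cells), EGFL7 (725 in TAZ4SA cells, 662 in control cells) and VWF (7.25 in TAZ4SA cells, 18.0 in control cells). VWF was below the minimum mean for a measured gene, and its interval of 0.118 to 1.11 included a ratio of 1. PECAM1, KDR, TEK, TIE1, CLDN5 and EMCN were not in the table analysed here. Of 10 fibroblast markers 2 were present, summing to 554 in TAZ4SA cells and 538 in control cells. COL1A1 had 490 in TAZ4SA cells and 413 in control cells, 1.19-fold higher (1.03 to 1.37), and COL6A3 63.8 in TAZ4SA cells and 125 in control cells, 1.96-fold lower (1.39 to 2.82). Of 10 leukocyte markers 4 were present, summing to 82.7 in TAZ4SA cells and 54.0 in control cells. Among them ITGAM, on 32 reads in TAZ4SA cells and 21 in control cells, was 2.46-fold higher (1.37 to 4.48). CSF1R had 26.1 in TAZ4SA cells and 14.4 in control cells, with an interval of 0.873 to 3.80 that included a ratio of 1. For CD68 (7.25 in TAZ4SA cells, 13.5 in control cells) the interval was 0.153 to 1.56. For LYZ (2.90 in TAZ4SA cells, 7.20 in control cells) it was 0.0417 to 2.02, so each included a ratio of 1. Both CD68 and LYZ were below the minimum mean for a measured gene. The part of the markers of other cell types in the Notch results was not tested.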

How the data were processed

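Per the submitters' processing notes, the build was GRCh37 and the tools included STAR, HTSeq, Trim Galore and DESeq2, with no settings stated. The deposited signal values are normalized counts, which, judged from the values, the authors made by dividing read counts by 1 factor per library: 100% of values were whole multiples of the column's step within 0.01 reads. Multiplying by the factors (0.689 for TAZ4SA, 1.11 for the control) recovered whole reads. The deposited log2 fold change of the authors differed from the log2 ratio computed here by at most 0.00304 for the 10 genes. Intervals are exact conditional binomial (Clopper-Pearson) at 95%; those for a ratio of 2 genes' ratios are Woolf intervals. Reads are not independent molecules. No count test was possible with 1 library per group. The procedure was tested on simulated counts that held counting error only. They had no spread between cultures and no planted difference of 1.5-fold, so they do not test the rule on either. Exon lengths came from GENCODE 29 (GRCh38), matched by identifier, for 97.2% of genes; coordinates in the text belong to RefSeq promoters only. The 10 genes, the lists and the rules were chosen with earlier results of these data known. The genes named were the 10, WWTR1, pathway genes past 1.5-fold and in each list up to 2 genes whose log2 ratio was largest in size; other list genes are named to complete a family or role and were chosen after their values were seen. Alternatives covered scaling, pseudocounts, filters, fold limits and thinning. Scaling factors were computed with DESeq2 1.42.0 and edgeR 4.0.16 in R 4.3.3, and all else in Python 3.11.15 with scipy 1.17.1, pandas 2.3.3 and numpy 2.4.6.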

Additional observations from a re-analysis of the deposited data

How the results depend on the processing

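Of 224 alternative values, 15 moved beyond the range allowed, which was the counting interval for genes and shares, 1.5 times for counts, and the interval of the middle genes for medians. The 120 values for WWTR1, the 10 Notch genes, HES7, KAT2B, LFNG and MAML3 under 4 scalings, 3 pseudocounts and thinned control reads all stayed within. The sign changed for 1 of them, MAML1, at a log2 ratio of -0.03 as reported and 0.0015 with thinned control reads, both inside its interval around 0. The 50 values for medians differed from those reported by at most 0.035 on the log2 scale; with thinned reads the median of the 10 genes was 0.06, against 0.04 as reported. The scalings and thinning shifted the all-gene median by 0.0044 or less on the log2 scale. Counts moved with the limit, by construction. The Notch genes lower were 2 as reported, 4 at a limit of 5/4-fold, 0 at 2-fold and 1 with a mean of at least 1000; with total count scaling HES1 crossed the limit at 1.502-fold and the count was 3. Other pathway genes higher were 2 as reported, 6 at a limit of 5/4-fold, 1 at 2-fold and 1 under a rule in which the nearer interval bound must pass 1.5-fold. Those lower were 2 as reported, 5 at a limit of 5/4-fold, 0 at 2-fold and 0 with the stricter bound. Shares depend on whether length is counted. The NOTCH3 share was 28.1% in TAZ4SA cells and 43.0% in control cells per kilobase of exon, and 23.0% in TAZ4SA cells and 36.6% in control cells per kilobase of the longest coding transcript, a length chosen after the data were seen. The JAG1 share per kilobase of exon was 40.3% in TAZ4SA cells and 52.3% in control cells. No paired analysis was possible because there is only 1 library in each group, and for the same reason no library could be left out. Among the 10 Notch genes depth limits HEY1 most, on 154 reads in the TAZ4SA library. Of the other pathway genes named, NOTCH4, HEY2, HES2, DLL3, DLK2, HES6 and KAT2B had fewer. KAT2B, counted as higher, rests on 117 reads in TAZ4SA cells and 114 in control cells.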

Other observations

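Since Notch signalling is known to restrain neuroendocrine differentiation in the lung, markers of that lineage were also read. Of 10 such markers 3 were in the table. NCAM1, an adhesion molecule of nerve and neuroendocrine cells, had 117 normalized counts in TAZ4SA cells and 275 in control cells, 2.34-fold lower (1.83 to 3.03) on 81 reads in TAZ4SA cells and 306 in control cells. SYP, a protein of synaptic vesicles, had 15.96 in TAZ4SA cells and 18.9 in control cells, and DLL3 is given with the ligands. NEUROD1, INSM1, CHGA and CHGB were among those not in the table analysed here.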
